A study of Mus musculus with 168 samples.

Results

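SB00526226, one of several JAK inhibitors in the series that are known only by code names, was compared with a pH 3 vehicle in arrays labelled as macrophages (MF) of the spleen. The members were 7 of the 168 arrays of the series, and 7 of the 33 arrays labelled spleen MF. They were chosen by source name and experiment: 4 arrays of mice given SB00526226 and 3 of mice given the vehicle, 0.5% MC at pH 3, in the experiments J2 and J8. All the mice were male C57BL/6 animals aged 6 weeks, dosed by gavage, and every mouse behind these arrays had received 14 treatments. J2 held 2 inhibitor arrays (animals 19 and 20) and 2 vehicle arrays (animals 21 and 22), all taken 14 h after the last treatment. J8 held 2 inhibitor arrays, animal 68 at 17 h and animal 72 at 14 h, and a single vehicle array, animal 70 at 14 h. The cells were sorted on the surface protein that Adgre1 encodes and their RNA was hybridised to Affymetrix Mouse Gene 1.0 ST arrays. The labels give no dose and do not say which vehicle a compound was given in. Animal numbers come from the titles, and the labels do not otherwise say how the samples relate, so p-values measure only the spread between these arrays.

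Janus kinases (JAK1, JAK2, JAK3 and TYK2) sit on the inner side of receptors for interferons, many interleukins and growth factors such as GM-CSF, and they pass the signal to STAT transcription factors. In macrophages this route keeps a basal level of interferon-stimulated transcripts, drives MHC class II through IFN-gamma, and carries IL-6, IL-10 and IL-4 signals. Resident macrophages also divide in the tissue, and during division they make transcripts of cyclins, kinesins and spindle checkpoint kinases from promoters that often carry CCAAT boxes, bound by NF-Y, and a cell cycle homology element, bound by the DREAM and MuvB complexes.

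No gene passed the test. In limma with the experiment as a covariate, 0 of 10219 tested genes (0%) had a Benjamini-Hochberg adjusted p under 0.05, while 170 genes lay lower with the inhibitor at an unadjusted p under 0.05 (1.66%) and 47 lay higher (0.46%). Together these are a smaller share than the 0.05 that such a threshold marks on average where no gene differs. The lower side was led by genes of cell division, and all 28 measured genes of a 30-gene mitosis list had lower estimates with SB00526226 than with the pH 3 vehicle. The 42 measured interferon-stimulated genes had a median difference near 0. Differences and levels below are in log2 intensity, a difference being SB00526226 minus pH 3 vehicle, and each SE or 95% interval is limma's.

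Because the mitosis genes lay lower together, their promoters are shown first. RefSeq (build GRCm38.p6) entries of 300 bases, 250 before to 50 after a gene's start, were matched by symbol for 23 of the 28 measured mitosis genes, with 24 entries. The 150 bases before the start are printed for 4 of the members with the largest differences that had an entry. Entries on a chromosome that was left out of the printing were passed over. The printed stretches run 5′ to 3′ on the gene's strand, with CCAAT or its reverse complement ATTGG and TTTGAA or its reverse complement TTCAAA in capitals. They are Bub1 at chr2:127831860-127832009 on the minus strand, Ccnb2 at chr9:70421555-70421704 on the minus strand, Kif11 at chr19:37376232-37376381 on the plus strand, and Nusap1 at chr2:119618148-119618297 on the plus strand.
Bub1: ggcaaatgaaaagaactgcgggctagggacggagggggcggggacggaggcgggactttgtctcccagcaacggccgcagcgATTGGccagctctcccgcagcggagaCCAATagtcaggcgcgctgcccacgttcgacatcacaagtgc
Ccnb2: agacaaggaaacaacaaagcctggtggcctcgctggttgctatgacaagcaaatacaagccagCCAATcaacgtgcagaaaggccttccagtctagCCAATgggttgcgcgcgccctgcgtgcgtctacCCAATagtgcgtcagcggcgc
Kif11: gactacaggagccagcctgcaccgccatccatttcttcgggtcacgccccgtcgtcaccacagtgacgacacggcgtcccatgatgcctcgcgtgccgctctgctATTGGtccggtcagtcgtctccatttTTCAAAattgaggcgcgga
Nusap1: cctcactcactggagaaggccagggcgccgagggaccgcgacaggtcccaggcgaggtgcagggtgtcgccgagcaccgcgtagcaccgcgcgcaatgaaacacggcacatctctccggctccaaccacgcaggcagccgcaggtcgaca
The printed stretch held 2 CCAAT matches in Bub1, 3 in Ccnb2, 1 in Kif11 and 0 in Nusap1, and it held a TTTGAA match only in Kif11 of these 4. Over the whole 300 bases and both strands, TTTGAA, the core letters of the cell cycle homology element, occurred in 79.2% of the 24 mitosis entries and in 17.9% of all 32851 promoter entries. CCAAT occurred in 83.3% and 37.4%, and both motifs together in 70.8% and 6.95%. Neither motif contains the other. These are matches of letters in a window, with no measurement of binding. The shares depend only on which genes the list holds, and no difference between the arrays enters them.

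Before the values, the arrays were set against their label. Adgre1, the gene of the adhesion receptor used in the sort, had levels from 12.53 to 12.85, and Mertk, an engulfment receptor of macrophages, from 10.72 to 11.18. The transcripts that define large macrophages of the peritoneal cavity were high as well: Gata6, their lineage factor, lay between 10.98 and 11.46, Prg4 between 13.38 and 13.61, and 18 of 19 measured markers of that list were above the array median. Of 8 measured markers of splenic red pulp macrophages, 2 were above the median in all 7 arrays, Cd163 (7.46 to 8.39) and Itgad (7.43 to 7.87). The others, among them their lineage factor Spic (4.91 to 5.61) and Vcam1 (5.70 to 6.35), were below it in all 7. The mean Gata6 level of arrays labelled peritoneal MF was 11.17, against 11.14 in all arrays labelled spleen MF and 6.18 in dendritic cell arrays. The levels of the large peritoneal markers go against the spleen label, and the arrays are called spleen MF here only as their label.

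Of other cell types, none of the markers of NK cells, neutrophils, eosinophils or mast cells was above the array median in any of the 7 arrays. B-cell markers had a summed intensity from 813 to 1231 with the inhibitor and from 774 to 904 with vehicle, with 3 of 8 measured markers above the median in some array, Cd79b from 7.69 to 9.002, and Pax5 and Ebf1 below the median throughout. T-cell markers summed to 541 to 683 with the inhibitor and 592 to 683 with vehicle, with 2 of 7 measured markers above the median in some array, Cd5 in 4 arrays and Cd2 in 2, and Cd3e, Cd3d and Cd3g below it throughout. Large peritoneal markers summed to 84836 to 98933 with the inhibitor and 87294 to 99657 with vehicle. Other lists were spread more widely among the inhibitor arrays than among the vehicle arrays: small peritoneal macrophage markers (8 of 9 above the median in some array) summed to 4986 to 9772 against 4974 to 7435, monocyte markers (4 of 4) to 609 to 1121 against 842 to 895, and platelet markers (3 of 4, with Pf4 from 11.80 to 13.12) to 3861 to 9148 against 4099 to 4835. Pf4 was by far the highest of the platelet markers, and its mean was 12.45 in all spleen MF arrays and 12.60 in peritoneal MF arrays. The other platelet markers were low: Ppbp was below the median throughout, Gp9 was above it in 1 array, and Itga2b reached at most 7.25. Dendritic cell markers (3 of 9) summed to 1712 to 2151 against 1975 to 2282, with Cd209a above the median in all 7 arrays and Flt3, Zbtb46 and Xcr1 below it throughout. Their part in the results below was not tested, and in these bulk samples fewer dividing cells and less RNA per cell cannot be told apart. Array medians ran from 126.9 to 139.9 in linear intensity, and no pair among the 7 arrays held identical values (correlations from 0.9752 to 0.9945).

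Bub1, a spindle checkpoint kinase, had the largest difference of any measured gene on the lower side. Its levels with SB00526226 were 6.75 and 5.88 in J2 (animals 19 and 20) and 7.57 and 6.38 in J8 (animals 68 and 72), against 7.52 and 7.70 in the J2 vehicle arrays and 8.33 in the J8 vehicle array. Every inhibitor array lay below the vehicle of its own experiment, but the J8 array of animal 68 lay above the lower J2 vehicle array, so the groups overlap. Of the inhibitor arrays, only that of animal 68 had Bub1 above the array median. Those of animals 19, 20 and 72 had it below their medians of 7.13, 6.99 and 6.99, and all vehicle arrays had it above. The difference was -1.32 (SE 0.288, 95% interval -1.97 to -0.67), a 2.50-fold lower intensity, with an adjusted p of 0.9999 in limma. It was -1.30 within J2 and -1.36 within J8.

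Ccnb2, a cyclin of the G2/M transition, was at 9.92 and 8.17 with the inhibitor in J2 and 10.02 and 8.89 in J8, against 10.22, 10.13 and 10.85 with vehicle. Kif11, the kinesin that pushes spindle poles apart, was at 8.38, 7.23, 8.23 and 7.33 with the inhibitor (animals 19, 20, 68 and 72) and at 8.57, 8.92 and 9.17 with vehicle. For both genes all 4 inhibitor arrays lay below all 3 vehicle arrays. The differences were -1.24 (SE 0.393) for Ccnb2 and -1.12 (SE 0.302) for Kif11, with an adjusted p of 0.9999 in limma for each.

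The other genes of the 12 with the largest lower differences, among tested genes with an unadjusted p under 0.05, were almost all of the same kind. Mitosis genes that did not pass the filter on low values, such as Prc1 (-0.92) and Hmmr (-0.94), lie outside this ranking. Prr11, a cell cycle gene, had a difference of -1.30 (SE 0.303), and its inhibitor arrays (6.77 to 8.17) did not overlap its vehicle arrays (8.50 to 8.995). Sgo2a, which protects centromeric cohesion, stood at -1.03 (SE 0.266), Ccna2, the S and G2 cyclin, at -1.02 (SE 0.372), and Nusap1, a microtubule bundling protein, at -0.95 (SE 0.358). Anln and Ect2, which act in the cleavage furrow, stood at -0.95 (SE 0.245) and -0.93 (SE 0.208), and the midzone kinesin Kif23 at -0.93 (SE 0.241). E2f8, a repressor of the E2F family, stood at -0.88 (SE 0.261), with no overlap of the groups, and the proliferation marker Mki67 at -0.83 (SE 0.261). Plk1, the polo kinase of mitotic entry, which is not among the 12, stood at -0.72 (SE 0.214), with 7.92, 7.21, 8.09 and 7.51 in the inhibitor arrays against 8.01, 8.20 and 8.78. Limma's adjusted p was 0.9999 for all of these, and 4 of 4 inhibitor arrays lay below their own vehicle mean in each.

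**Figure D1:**
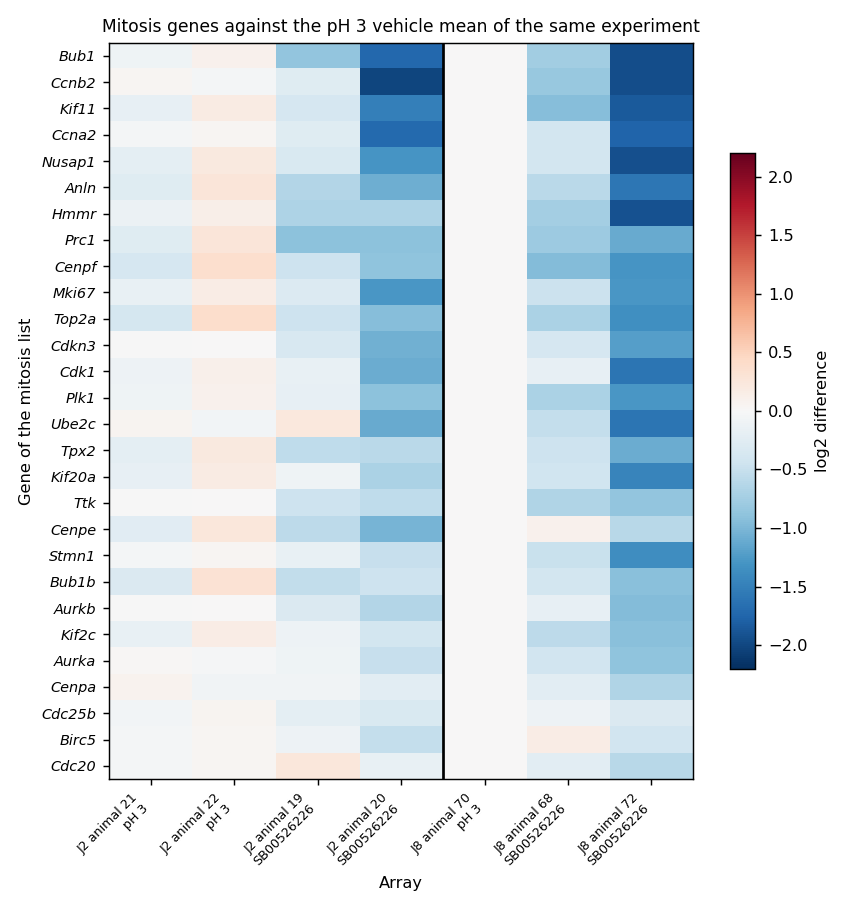
Each row is a gene of the mitosis list and each column one of the 7 arrays; colour gives the log2 level minus the pH 3 vehicle mean of the same experiment, with the black line between J2 and J8. The columns of animals 20 and 72 are the darkest blue, and the column of animal 68 and that of animal 19 are paler, with Ube2c and Cdc20 above the vehicle mean in animal 19.

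Over the list, differences ran from -1.32 for Bub1 to -0.15 for Cdc20, the activator of the anaphase-promoting complex, with a median of -0.70, against a median of -0.02 over all 19752 measured genes. Without the filter on low values, 24 of the 28 measured members had an unadjusted p under 0.05 and lay lower, where 1.66% of all measured genes did. In 24 of the 28 members each of the 4 inhibitor arrays lay below the vehicle mean of its experiment (8.67% of all genes), and in 6 members all 4 inhibitor arrays lay below all 3 vehicle arrays (1.75% of all genes). These 6 were Ccnb2, Kif11, Cenpf, Ttk, Prc1 and Cdc25b. Prc1, which bundles the midzone, had the smallest unadjusted p of the list, 4.806e-05, at a difference of -0.92 (SE 0.154, limma without the filter). After the filter 21 members were tested, with a median of -0.72 and 0 passing adjustment. None of them lacked an inhibitor array above the array median. The 3 vehicle arrays alone could still meet the filter, as they did for Bub1. The list was chosen with earlier results of these data known, so its counts are a description.

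The mean level of the 28 mitosis genes was spread widely among the inhibitor arrays. With SB00526226 it was 7.47 and 6.91 in J2 (animals 19 and 20) and 7.92 and 7.16 in J8 (animals 68 and 72), and with pH 3 vehicle it was 7.67 and 7.92 in J2 and 8.40 in J8. In each experiment both inhibitor arrays lay below the vehicle, but the array of animal 68, the one taken at 17 h, stood level with the higher J2 vehicle array. The median of the list's differences was -0.60 within J2 and -0.91 within J8. Leaving out 1 array at a time gave medians from -0.93 (without animal 19) to -0.55 (without animal 72).

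**Figure D2:**
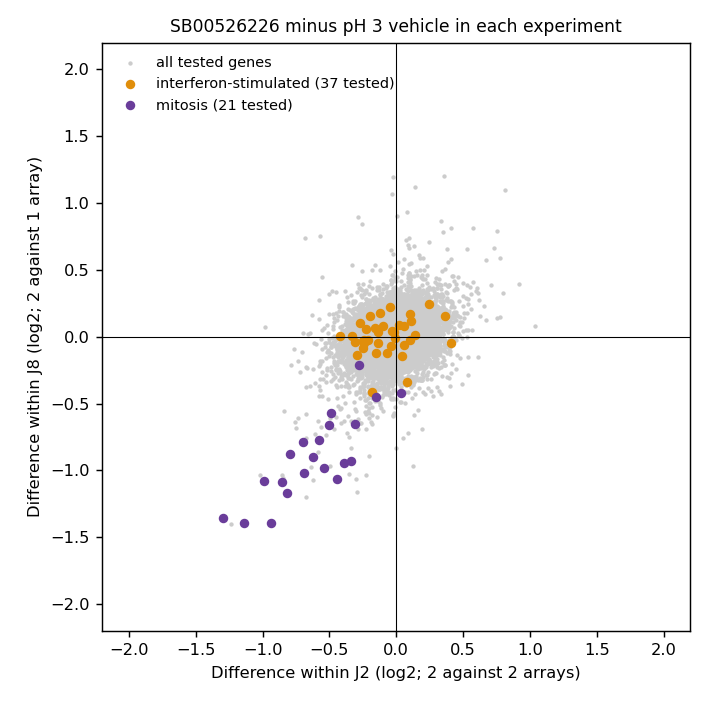
Each point is a tested gene, with its log2 difference of SB00526226 from pH 3 vehicle within J2 on the horizontal axis and within J8 on the vertical axis; purple points are the 21 tested mitosis genes and orange points the 37 tested interferon-stimulated genes. The mitosis genes reach -1.30 in J2 and -1.40 in J8, at the lower left edge of all tested genes, and the interferon-stimulated genes lie around 0 in both experiments.

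Genes of DNA replication, the step before mitosis, lay lower by a smaller amount. The list's 28 measured members had a median difference of -0.25, 27 of them were below 0, and 9 had an unadjusted p under 0.05 in the lower direction without the filter, where 1.66% of all genes did. Mcm6, a subunit of the replicative helicase, was at 8.24, 8.44, 9.42 and 9.15 in the inhibitor arrays and at 8.78, 8.80 and 9.88 with vehicle, lower than its own vehicle in 4 of 4 arrays but overlapping between experiments. Its difference was -0.51 (SE 0.128, limma adjusted p 0.9999). Rrm2, a subunit of ribonucleotide reductase, stood at -0.64 (SE 0.235, without the filter), Prim1, a primase subunit, at -0.46 (SE 0.151), and Pcna, the sliding clamp, at -0.07 (SE 0.134). Cdt1, a licensing factor, was the single member above 0, at 0.08.

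Interferon-stimulated genes had differences near 0. The median difference of 42 measured members was -0.05, and single members ran from -0.27 (Slfn1) to 0.28 (Ifi35). At an unadjusted p under 0.05 lay 0 members in either direction, where 1.66% of all genes lay lower and 0.44% higher. At those shares a list of this size can hold 0 members, so the count does not set the list apart. Each inhibitor array lay below its own vehicle mean in 6 of the 42, where 8.67% of all genes did so. Ifi27l2a, an interferon-inducible gene, was at 7.29 and 7.94 with the inhibitor in J2 and at 8.58 and 8.01 in J8, and at 7.64, 7.46 and 8.36 with vehicle. The vehicle arrays lay inside the inhibitor range of their own experiment, and the difference was 0.01 (SE 0.195, 95% interval -0.43 to 0.45). Rtp4 stood at -0.10 (interval -0.46 to 0.27), Irf7, the amplifying factor of type I interferon, at 0.09 (-0.25 to 0.42), and Oasl2, of the oligoadenylate synthetase family, at -0.23 (-0.51 to 0.04). Oasl2 had the largest statistic of the list and was lower than its own vehicle in 4 of 4 arrays (limma adjusted p 0.9999). A p that misses the threshold does not show that the levels were the same; the intervals show which sizes these 7 arrays leave possible.

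MHC class II genes, which IFN-gamma drives through the coactivator Ciita, had a median difference of 0.06 over 9 measured members. At an unadjusted p under 0.05 lay 0 members, where 1.66% of all genes lay lower and 0.44% higher, so this count does not set the list apart either. H2-Aa stood at 0.09 (SE 0.224) and the invariant chain gene Cd74 at -0.02 (SE 0.196). Differences of the kinase genes were smaller than their SE, with Jak1 at 0.05 (SE 0.168), Jak2 at -0.06 (SE 0.168) and Tyk2 at 0.02 (SE 0.153). The measured STAT genes ran from -0.06 (Stat4) to 0.10 (Stat5b). Jak3 was not analysed here. Transcripts of the feedback arm were mixed: among 18 measured members 9 were above and 9 below 0, with Cish, a target of STAT5, at -0.23 (SE 0.165, without the filter) and the kinase Pim1 at 0.20 (SE 0.201).

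Socs3, the feedback inhibitor that IL-6 and IL-10 induce through STAT3, lay higher in all 4 inhibitor arrays than in the vehicle of their experiment. It was at 8.37, 8.72, 9.12 and 9.19 with SB00526226 and at 8.18, 8.24 and 8.80 with vehicle, so that the J2 inhibitor arrays lay below the J8 vehicle array. The difference was 0.34 (SE 0.128, limma adjusted p 0.9999). Saa3, an acute-phase transcript of the same list, stood at 0.45 (SE 0.136), with 12.16, 12.49, 12.80 and 12.99 against 11.85, 12.02 and 12.34. These 2 were the members of the STAT3-dependent list with an unadjusted p under 0.05, out of 14 measured, where 0.44% of all genes without the filter lay higher at that p, and the list's median was 0.09.

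Among cytokines and chemokines 3 of 27 measured members had an unadjusted p under 0.05 without the filter, all in the lower direction, where 1.66% of all genes lay lower at that p. After the filter 1 of 12 tested members did. The 3 were Cxcl9, an IFN-gamma-induced chemokine, at -0.39 (SE 0.158), Ccl8 at -0.38 (SE 0.132) and Ccl3, an inflammatory chemokine, at -0.36 (SE 0.134). Ccl3 was at 8.50, 8.50, 9.02 and 8.68 with the inhibitor and at 8.92, 8.81 and 9.21 with vehicle, below its own vehicle in 4 of 4 arrays. Tnf stood at -0.10 (SE 0.157) and Il6 at 0.05 (SE 0.157).

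The remaining lists, on metabolism, stress, receptors, innate sensing and clearance, had medians between -0.06 and 0.14 and few members past an unadjusted p of 0.05. Those were Marco, a scavenger receptor, at 0.53 (SE 0.222), Jund, an AP-1 subunit, at 0.34 (SE 0.114), Nr4a2, an orphan nuclear receptor, at -0.41 (SE 0.152, without the filter), and Asns, asparagine synthetase, at -0.31 (SE 0.131, without the filter). Marco differed between experiments, with 0.14 within J2 and 1.12 within J8; that difference was not tested.

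**Figure D3:**
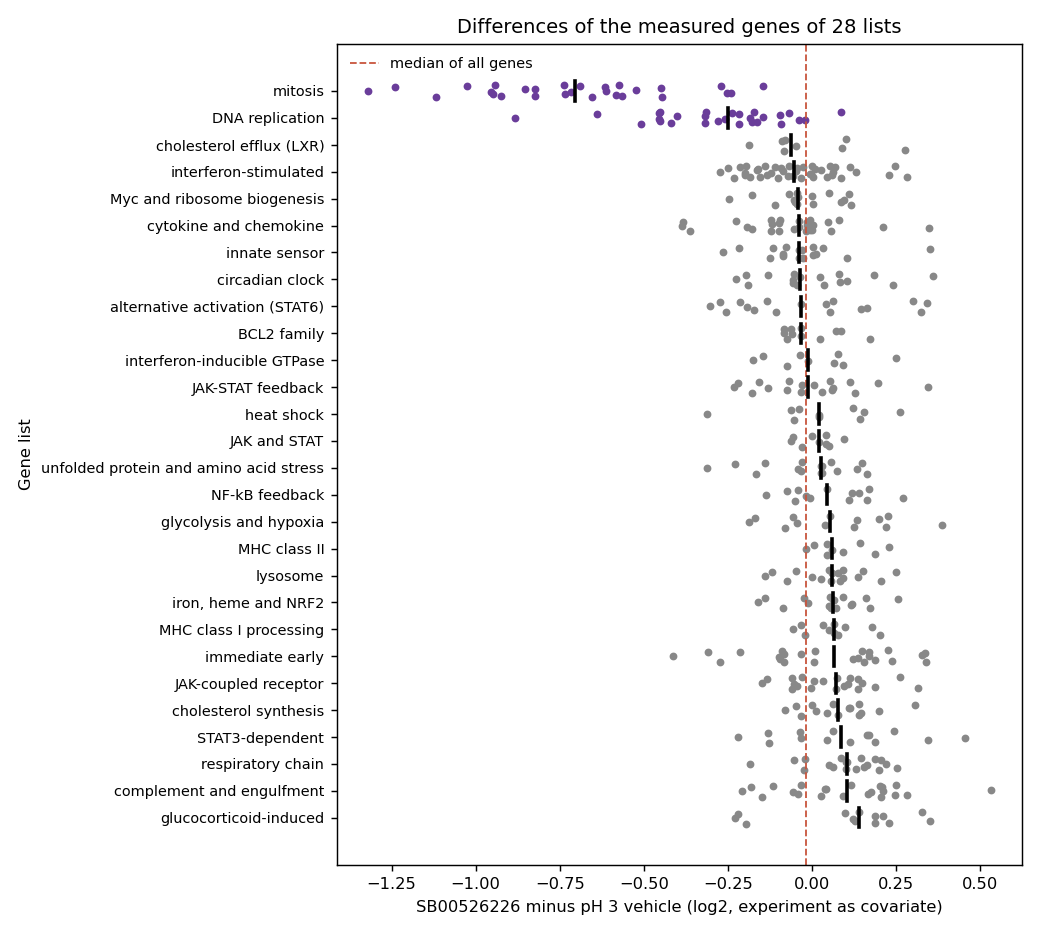
Each point is a measured gene of one of the 28 lists, placed by its log2 difference of SB00526226 from pH 3 vehicle; black ticks are list medians and the dashed line is the median of all genes. The mitosis list (median -0.70) and the DNA replication list (median -0.25), in purple, lie to the left of the other lists, whose medians fall between -0.06 and 0.14.

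On the higher side, the largest differences belonged to small non-coding RNAs. Snord33, Snord47, Snord49b, Snord73b, Snord82 and Snord35a are box C/D small nucleolar RNAs, which guide methylation of ribosomal RNA, and Rny3 is a Y RNA; their differences ran from 0.58 to 0.93. Snord82 was at 9.57, 10.38, 10.82 and 10.63 with SB00526226 and at 9.38, 9.42 and 9.91 with vehicle, higher than its own vehicle in 4 of 4 arrays and overlapping between experiments. Its difference was 0.67 (SE 0.189, limma adjusted p 0.9999). Counted by symbol, a grouping made after the values were seen, 16 of 20 tested Snord genes and 13 of 15 tested Snora genes lay above 0, with medians of 0.39 and 0.31, and so did 48 of 54 ribosomal protein genes, with a median of 0.21. Over all 10219 tested genes 4766 lay above 0, and the median was -0.01. Of the 3 families 6 Snord, 2 Snora and 5 ribosomal protein genes lay higher at an unadjusted limma p under 0.05, where 0.46% of tested genes did. Other genes among the 12 largest were Rpl14, a ribosomal protein, at 0.66 (SE 0.258), S1pr5, a receptor of sphingosine-1-phosphate, at 0.53 (SE 0.225), Oaz2, an inhibitor of polyamine synthesis, at 0.50 (SE 0.154), and Bcam, an adhesion receptor for laminin, at 0.48 (SE 0.135). Rpl14 and S1pr5 differed mostly in J2, at 1.04 and 0.775 there against 0.083 and 0.151 within J8. Oaz2 and Bcam stood at 0.60 and 0.62 within J2 and at 0.34 and 0.27 within J8. These splits were not tested. Many small nucleolar RNAs lie in introns of ribosomal protein genes, and which of them a probe set reads was not tested.

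The pH 3 vehicle itself was set against the plain vehicle, 0.5% MC, in a fit of all 23 spleen MF arrays of J2 and J8, where 4 arrays hold plain vehicle after 14 treatments, 1 in J2 and 3 in J8. No gene passed (0 of 10915, 0%, limma, with 147 at an unadjusted p under 0.05). The mitosis genes lay higher with the pH 3 vehicle, with a median of 0.34 over the 28 members, 0 of them below 0 and 6 higher at an unadjusted p under 0.05 (0.891% of all genes without the filter). In list means the plain vehicle arrays stood at 7.66 in J2 and at 7.64, 7.43 and 8.05 in J8, and the J8 pH 3 array, at 8.40, was above all of them. Against the plain vehicle the median of SB00526226 was -0.29 in place of -0.64 in the same fit, with 27 of 28 members below 0. At an unadjusted p under 0.05 without the filter, 3 members lay lower against plain vehicle (0.8% of all genes) and 22 against pH 3 vehicle (1.35%). Bub1 stood at -0.56 against plain vehicle and at -1.24 against pH 3 vehicle, and Mki67 at -0.13 and -0.76.

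The values of the small RNAs also depended on the control. Snord82 was 0.79 lower in pH 3 than in plain vehicle (difference -0.79, SE 0.231, limma adjusted p 1, unadjusted p 0.002926), with plain vehicle arrays at 10.04 in J2 and 11.49, 10.59 and 10.49 in J8, and SB00526226 minus plain vehicle was -0.13. Jund (-0.59, SE 0.152) was also among the genes with the lowest statistic in pH 3 against plain vehicle, and Socs3 stood at -0.41 there. Against plain vehicle the SB00526226 differences of Socs3 and Jund were -0.07 and -0.25, on the other side of 0 from those against pH 3 vehicle, and so were those of Snord47, Snord49b, Snord35a, Rpl14 and S1pr5. These contrasts share their arrays, and each is given only by its own values.

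**Figure D4:**
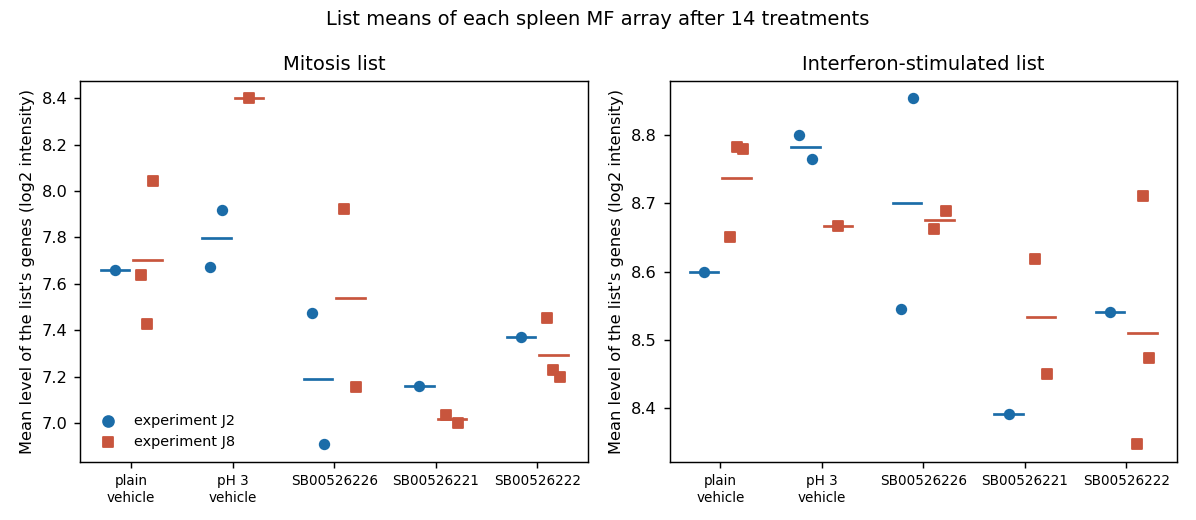
Points are spleen MF arrays after 14 treatments, by group on the horizontal axis, with the mean log2 intensity of the mitosis list on the left and of the interferon-stimulated list on the right; circles are J2, squares are J8 and short lines are means within an experiment. The mitosis mean of the J8 pH 3 array is 8.40, the highest shown, and the SB00526226 arrays run from 6.91 to 7.92; their interferon means of 8.55 to 8.85 take in the pH 3 range of 8.67 to 8.80.

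SB00526221 and SB00526222, also known only by code names, were profiled in the same experiments after 14 treatments, with 3 and 4 arrays at 14 or 17 h. Doses are not in the labels, so a difference between compounds and a difference between doses cannot be told apart. The 2 compounds were compared with SB00526226 as differences of effects, SB00526226 against pH 3 vehicle and the others against plain vehicle, so that the pairs share no control array. Neither comparison had a gene past an adjusted p of 0.05 in limma (0 of 10915 each, 0%, with 438 genes at an unadjusted p under 0.05 for SB00526221 and 231 for SB00526222).

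Mitosis genes lay lower with every one of the 3 compounds. The list's median was -0.64 for SB00526226 against pH 3 vehicle, -0.68 for SB00526221 and -0.36 for SB00526222 against plain vehicle, the latter pair sharing their control arrays. With plain vehicle as the control of SB00526226 too, its median was -0.29, nearer to 0 than those of the other compounds. The order of the compounds therefore depended on the control. As differences of effects, SB00526226 minus SB00526221 had a list median of -0.01 and SB00526226 minus SB00526222 one of -0.25, with 0 and 1 of 28 members lower at an unadjusted p under 0.05 (1.77% and 1.22% of all genes). For Bub1 those differences of effects were -0.35 (SE 0.419) and -0.62 (SE 0.402), which leave room for a difference in either direction.

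Ifi27l2a set the compounds apart by the largest amount among the always-named genes. SB00526221 arrays stood at 6.40 in J2 and 7.68 and 6.76 in J8, and SB00526222 arrays at 6.64 in J2 and 7.16, 7.63 and 7.12 in J8, against plain vehicle at 7.40 in J2 and 9.42, 8.51 and 8.77 in J8. Every array of these compounds lay below all plain vehicle arrays of its experiment, whereas the SB00526226 arrays stood on both sides of the pH 3 vehicle. The controls are unlike: against plain vehicle, pH 3 vehicle stood at -0.335 and SB00526226 at -0.35. The SB00526226 arrays of animals 19 (7.29) and 72 (8.01) also lay below all plain vehicle arrays of their experiment, and those of animals 20 and 68 did not. The effects were -1.51 (SE 0.255, adjusted p 0.09181) and -1.39 (SE 0.236, adjusted p 0.1468). SB00526226's effect was higher than SB00526221's by 1.49 (SE 0.363, limma adjusted p 0.9891) and higher than SB00526222's by 1.37 (SE 0.348, limma adjusted p 0.9999), and neither difference passed over all genes. Cd52, a small surface glycoprotein, came nearest to the threshold: its effect was 0.45 (SE 0.138) with SB00526226 and -0.80 (SE 0.138) with SB00526221, a difference of 1.25 (SE 0.196, limma adjusted p 0.05501).

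Rtp4 and H2-Aa had the same order of effects with less certainty, but for H2-Aa only SB00526221 stood far from SB00526226. Rtp4 had an effect of -0.13 with SB00526226, -0.93 (SE 0.281) with SB00526221 and -0.72 (SE 0.260) with SB00526222, and the difference of effects was 0.81 (SE 0.400) and 0.59 (SE 0.384). Its J8 levels were split within both compounds. Animals 61 (SB00526221) and 69 (SB00526222) stood at 9.31, near plain vehicle at 9.33 to 9.34. Animal 63 (SB00526221) stood at 8.10, and animals 67 and 71 (SB00526222) at 8.86 and 7.99. H2-Aa stood at 0.16, -1.28 and -0.11, with a difference from SB00526221 of 1.44 (SE 0.378) and from SB00526222 of 0.27 (SE 0.363). Over the interferon-stimulated list the medians were -0.07 for SB00526226, -0.16 for SB00526221 and -0.11 for SB00526222, and over the MHC class II list 0.10, -0.34 and -0.01.

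**Figure D5:**
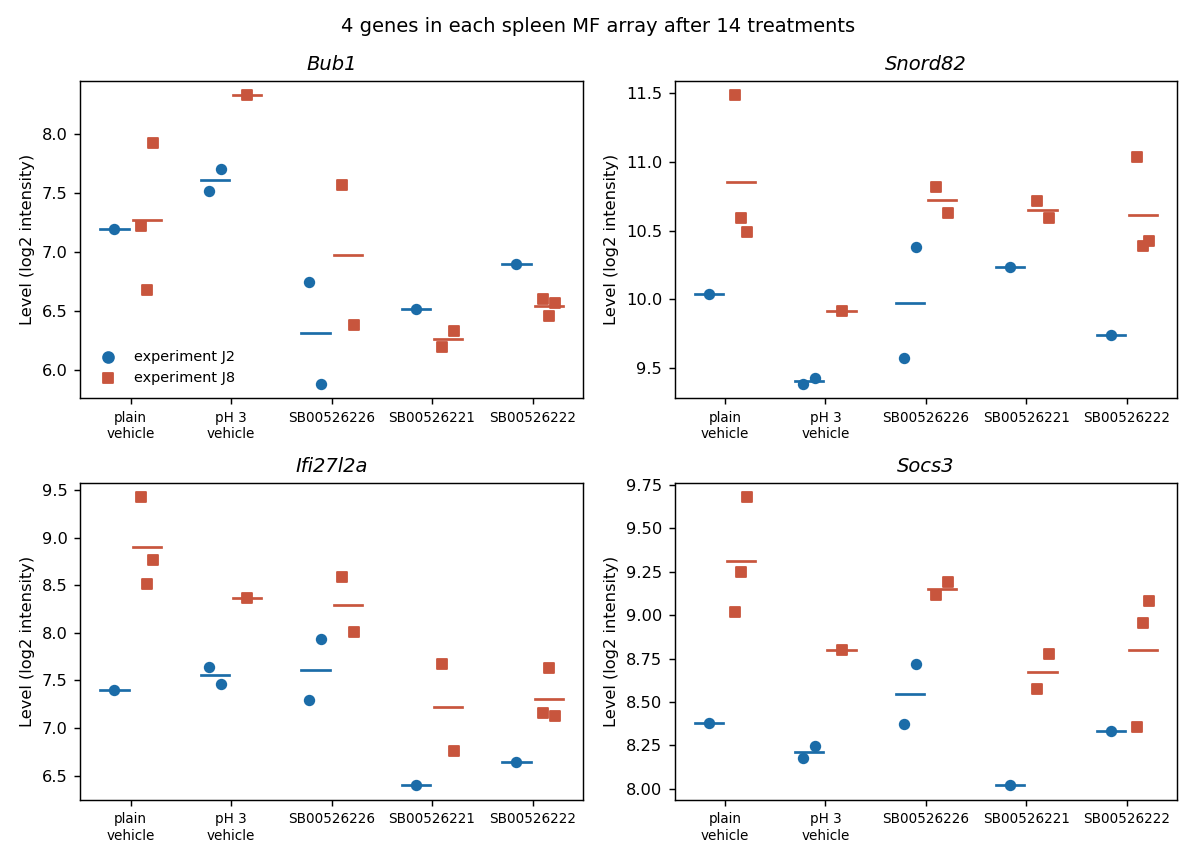
Points give the log2 intensity of Bub1, Snord82, Ifi27l2a and Socs3 in each spleen MF array after 14 treatments, by group; circles are J2, squares are J8 and short lines are means within an experiment. Ifi27l2a lies at 6.40 to 7.68 with SB00526221 and SB00526222 and at 7.29 to 8.58 with SB00526226, and Snord82 is lowest in the pH 3 vehicle of each experiment.

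A single spleen MF array, of J2 animal 29, came from a short schedule of SB00526226: 3 treatments, with 4 h between the last one and the harvest. Its mitosis mean was 7.75, between the J2 pH 3 arrays of 14 treatments (7.67 and 7.92), and its Bub1 level was 7.02, below both of those vehicle arrays. Its Socs3 level was 9.27, above all J2 arrays of 14 treatments. There is no pH 3 vehicle array of that schedule, so schedule and compound cannot be told apart.

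CD4 T cells (T4) of J8 were the other cell type labelled spleen with SB00526226 and pH 3 vehicle arrays after 14 treatments, 3 and 2. Their mitosis means were 7.46, 7.57 and 7.72 with the inhibitor and 7.96 and 8.24 with vehicle, with no overlap. Of the inhibitor arrays those of animals 68 and 73 were taken at 17 h (7.46 and 7.72) and that of animal 72 at 14 h (7.57), while both vehicle arrays were taken at 14 h, so hour and treatment cannot be told apart for the first pair. The list's median difference was -0.50, against -0.91 in the J8 spleen MF arrays (2 against 1). The difference of the effect between MF and T4, fitted with limma and a correlation of 0.424 between arrays of 1 animal, passed for 0 of 10798 genes (0%, 334 at an unadjusted p under 0.05). Because the MF markers go against the spleen label, cell type and tissue cannot be told apart in this comparison. Animal 72 had the lowest MF mean of J8 in this comparison (7.16) and the middle T4 mean (7.57), and animal 68 the higher MF mean (7.92) and the lowest T4 mean (7.46).

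With 4 and 3 arrays the fit has 4 residual degrees of freedom. An exact permutation test within experiments has 18 arrangements, so its smallest two-sided p is 0.0556. Kif11, E2f8, Plk1, Mcm6, Snord33 and Socs3 were among the named genes that reached it. Bub1, Prr11, Ccnb2, Sgo2a, Anln, Kif23, Ect2 and Mki67 stood at 0.111, Nusap1 at 0.167 and Ccna2 at 0.222 in the same test. Many of the named genes were picked by their values in these arrays, and no share over all genes is given. In simulated data of the same 7 arrays and 10219 genes, each gene varied independently with its own residual SD, and 200 genes were changed by the same size. Of those, 0% were recovered at a change of 0.5, 72.5% at 1 and 93.5% at 1.5, with 0, 8 and 14 unchanged genes called. These shares hold for that setting and do not give the share that the real data would yield. In the real data Bub1, at -1.32, had a limma adjusted p of 0.9999.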

How the data were processed

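Per the submitters' processing notes, the authors made one intensity per probe set by RMA with Affymetrix Power Tools, with no version given there and no word on which arrays were normalized together. The deposited intensity values were taken as linear (maxima 15118 to 19209 and a lowest value of 5.46 over the 7 arrays), and log2 was taken with no pseudocount. Precision is limited by the number of arrays. Of 24922 probe sets, 21425 had 1 gene symbol in the platform annotation, and 1399 with several and 2098 with none were left out; 21347 of those symbols matched RefSeq genes of GRCm38. Of several probe sets, the one highest on average in the 7 arrays stood for each of 19752 genes. A gene was tested if it was above its array's median in at least 3 of the 7 arrays.

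The fit was limma 3.58.1 in R 4.3.3, treatment plus experiment, with two-sided moderated tests and Benjamini-Hochberg adjustment over all genes tested. Fits without the filter gave the counts over lists. Other compounds, the plain vehicle and T4 entered the contrasts named with them, the T4 contrast with the animal as a random block. Samples were grouped by the labels' source name, and replicate numbers only follow the deposited order. The pipeline was tested on simulated data. Promoters and figures were handled in Python 3.11.15.

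Named genes were any past adjusted p 0.05, the 12 largest differences each way at an unadjusted p under 0.05 with 1 sign in J2 and J8, the member of each list with the largest statistic, Jak1, Jak2, Jak3, Tyk2, Ifi27l2a, Rtp4, Oasl2, Irf7, Socs3, Cish, Pim1, H2-Aa, Cd74 and Plk1, and the 3 highest and lowest of each further contrast; an item of the rule is not reported here. Other list members named in the text were picked once the values were known. The members and the lists were chosen with earlier results of these data known. Alternatives covered the control, filter, normalization, probe set choice, moderation, array weights, experiment term and each array left out.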

Additional observations from a re-analysis of the deposited data

Results flagged for a closer look

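Among 61 named genes, 3 had an array far from the other 3 inhibitor arrays, each time the J2 array of animal 19. Snord33 stood at 6.97 there against 8.28 to 8.41 in the other 3 arrays. Pfkl, a glycolytic enzyme, stood at 8.99 against 9.83 to 9.99, and Irf7 at 8.20 against 8.71 to 8.76. By chance about 1 in 20 groups is marked in this way.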

How the results depend on the processing

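The count of genes past the adjusted threshold was 0 under every alternative fitted, except that leaving out 1 array at a time gave 0 to 1: without the SB00526226 array of animal 19, the difference of Snord33 passed at 1.30 (limma adjusted p 0.03331, against 0.06302 to 1 under the other alternatives). The mitosis median kept its sign throughout, from -0.93 to -0.55 with 1 array left out and at -0.44 with both vehicles pooled, and was -0.30 with the plain vehicle as the only control, an alternative chosen after seeing the data. With array weights, whose gene-by-gene method was chosen after the default did not converge, it was -0.85. With plain vehicle as the only control the sign turned for Snord47 (-0.20), Snord49b (-0.17), Snord82 (-0.11), Rpl14 (-0.34), Snord35a (-0.17), S1pr5 (-0.013), Psme1 (-0.10), Socs3 (-0.045), Il21r (-0.064), Jund (-0.25), Hspe1 (-0.10), Ddit4 (0.022), Nolc1 (0.082) and Pmaip1 (-0.12), and within J8 alone Pmaip1 stood at -0.067; the cause was not tested. Of 1189 values of 60 single genes, 1132 kept sign and side of the threshold, and 41 changed sign where the difference was within 1 SE of 0. The contrasts between compounds, vehicles and cell types had 0 genes in each alternative fitted; leaving out the MF array of animal 68 or of animal 72 could not be fitted for T4. No paired analysis was possible because replicate numbers only follow the deposited order and the groups hold different animals. The number of arrays, and the single J8 vehicle array, limit all of these values.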
